A study of Aspergillus niger with 6 samples.

Results

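In mycelium of an engineered Aspergillus niger strain, 82 of 10505 gene IDs in the count table had a mean of at least 20 CPM in seed culture and at most 5 CPM in fermentation culture. CPM is the counts of an ID per 1000000 gene counts of its library. The IDs were chosen by these values: a name beginning with ANI_1_, a mean of at least 20 CPM over the seed libraries, a mean of at most 5 CPM over the fermentation libraries, and every fermentation library below every seed library. They make up 1.53% of the 5348 ANI_1_ IDs with a mean seed level of at least 20 CPM. The last condition left out no ID, since all 82 that met both limits also had no overlap between the states. The rule used the seed and fermentation levels of all 6 libraries, so the size of the difference between the states is described below and was not tested.

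The fermentation group is mycelium sampled 72 h after transfer to fermentation medium for L-malic acid production, and the seed group is mycelium grown from spores for 20 h in seed medium. Each has 3 biological replicates. All 6 libraries come from the same strain, written RG0095 or GR0095, in an ATCC 1015 background. Its genotype lists a deletion of oahA, the gene of oxaloacetate acetylhydrolase, which forms oxalate, together with pyc (pyruvate carboxylase), mdhC (malate dehydrogenase) and C4T318 behind a gpd promoter. No unmodified strain was among the samples, so every difference is one between culture states of this strain. Medium and culture time differ together and cannot be told apart.

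In submerged culture of A. niger, the seed stage takes germinating spores to growing hyphae, and the fermentation stage serves to convert sugar to organic acid. Filamentous fungi place many genes of one biosynthetic pathway next to each other on a chromosome, and such neighbours are often switched on and off together. The table names its genes by ID only. None of the members (0 of 82) matched the RefSeq genes of assembly ASM285v2, so no product, pathway or position is given for any of them, and markers of growth or spore formation could not be checked. Gene lengths are also missing, so CPM is not corrected for length, and a CPM of one ID is compared here with the same ID in another library.

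Library totals lay between 16828913 and 20267348 counts, and 1 count was worth 0.0493 to 0.0594 CPM. Replicate 1 differed most from the other libraries in both states. The counts of fermentation replicate 1 against fermentation replicates 2 and 3 gave a chi-square of 80.4 and 71.5 per degree of freedom, against 18.6 between replicates 2 and 3. Seed replicate 1 also stood apart, at 28.7 and 40.9 against seed replicates 2 and 3, which gave 11.7 between them. Nothing in the labels says whether the replicates were grown on different days.

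The members held 0.0183 ± 0.00294% of all gene counts in fermentation and 0.551 ± 0.00734% in seed (SD, n = 3 each). In fermentation they took 2809, 3845 and 2899 counts per library, against 103872, 113433 and 96022 in seed. The median member had 1.78, 2.26 and 1.62 CPM in fermentation replicates 1, 2 and 3, and 40.2, 44.6 and 43.4 CPM in seed replicates 1, 2 and 3. In bulk RNA, fewer hyphae that express a gene and less of its RNA per hypha cannot be told apart.

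**Figure D1:**
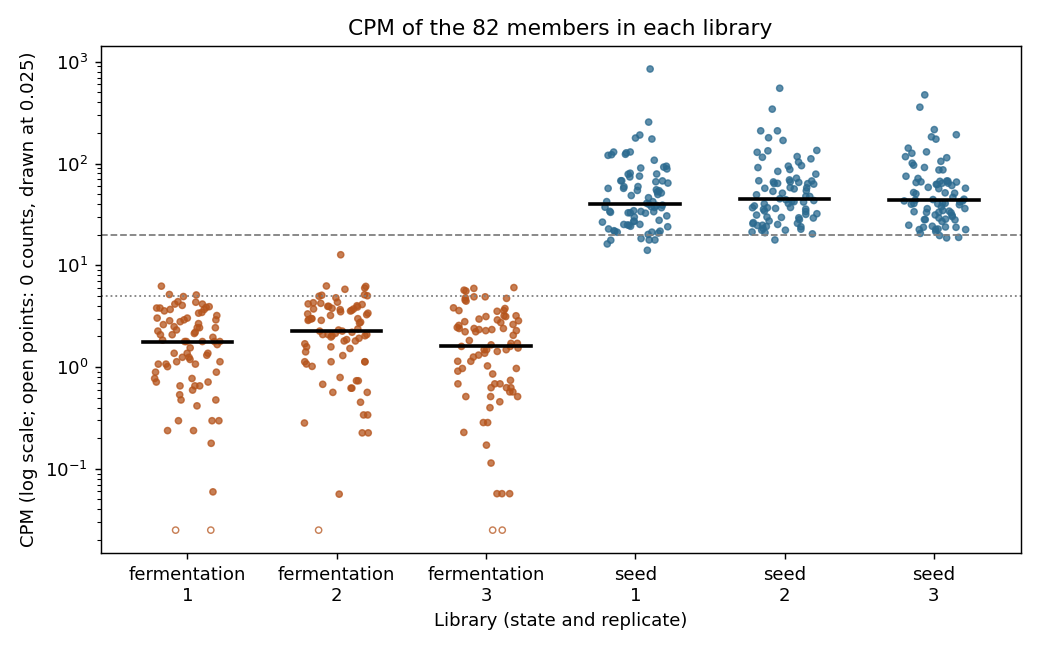
CPM on a log scale for the 82 members (points) in the 3 fermentation and the 3 seed libraries; black lines are medians, open points are members with 0 counts, and the dotted and dashed lines mark 5 and 20 CPM. The fermentation medians lie between 1.62 and 2.26 CPM and the seed medians between 40.2 and 44.6 CPM, and the highest fermentation point is 12.7 CPM in replicate 2.

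Per member, the mean level was between 0.0388 and 4.82 CPM in fermentation, with a median of 2.01, and between 20.5 and 624 CPM in seed, with a median of 43.8. The fermentation level was 3.81% of the seed level in the median member, with a lowest value of 0.126% and a highest of 22.2%. By counts pooled over the libraries of a state, 70 of the 82 members were at least 10-fold lower in fermentation. Of these, 47 were at least 20-fold lower, 22 at least 50-fold and 12 at least 100-fold. All 82 were at least 4-fold lower, which the limits of 20 and 5 CPM on the means nearly fix in advance. The same limits cap the highest percentage. The lowest seed library stood at least 10-fold above the highest fermentation library in 58 members, and in no member (0) was that margin under 2-fold.

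The limit of 5 CPM does not follow a gap in the data. Of the IDs that met the seed limit of 20 CPM, 9 had a mean of at most 0.5 CPM in fermentation, 20 of at most 1 CPM, 50 of at most 2.5 CPM and 82 of at most 5 CPM, and the number went on to 187 at 10 CPM and 624 at 20 CPM. The nearest IDs on either side of the fermentation limit were ANI_1_574044 and ANI_1_690104, at 4.82 and 4.71 CPM, just inside, and ANI_1_1498064 and ANI_1_2490014, at 5.004 and 5.02 CPM, just outside. At the seed limit, ANI_1_342114 and ANI_1_2106014 lay just inside at 20.5 and 20.96 CPM, and ANI_1_376054 and ANI_1_986134 just outside at 19.7 and 19.6 CPM. ANI_1_986134, which missed the list by its seed level, averaged 1.09 CPM in fermentation. The same limits turned round, at least 20 CPM in fermentation and at most 5 CPM in seed without overlap, hold 63 IDs.

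**Figure D2:**
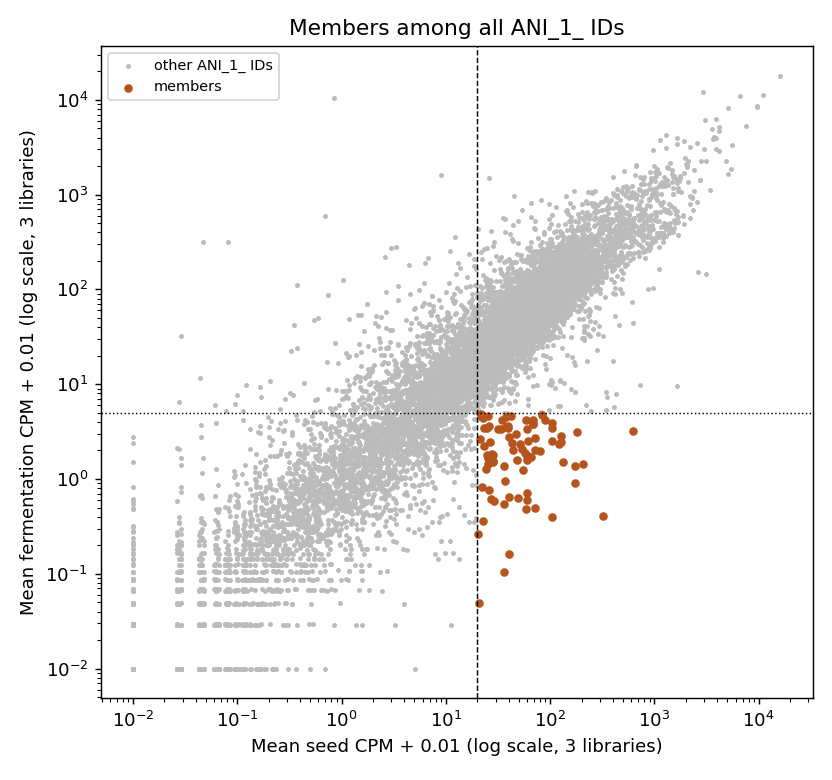
Mean fermentation CPM against mean seed CPM over 3 libraries each (both axes log scale, 0.01 added) for all ANI_1_ IDs in grey and the 82 members in orange, with the limits of 5 and 20 CPM as lines. The members fill the lower right corner without a gap to the other IDs. Among IDs with at least 20 CPM in seed, 187, members included, lie at or below 10 CPM in fermentation.

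Log2 fold changes, fermentation over seed, came from edgeR's quasi-likelihood fit to all 8963 IDs that passed a low-count filter, which included every one of the 82 members. Calls were made where the Benjamini-Hochberg adjusted p was below 0.05. All 82 members were called lower, and all 82 by at least 2-fold, where 33.0% of all IDs tested were called lower and 14.6% lower by at least 2-fold. The rule used the same libraries, so nothing is read from that count. The members' median log2 fold change was -4.62, with values from -9.51 to -2.06, and the median over all IDs tested was 0.01. The standard error was 0.25 in the median member, against 0.15 over all IDs tested. It went up to 1.09 in ANI_1_1914064, a member whose fermentation libraries disagree.

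The 5 members with the highest seed levels held 27.3% of the members' seed counts. ANI_1_382114 had 4.34, 2.93 and 2.39 CPM in the fermentation libraries, against 849, 549.5 and 473 CPM in the seed libraries. It was by far the most counted member in seed, its seed libraries spread widely with replicate 1 on top, and its fermentation level was still 195-fold lower by pooled counts (95% interval 168 to 229). ANI_1_1590104 had 0.297, 0.621 and 0.285 CPM in fermentation, against 255, 343 and 358 CPM in seed. Here seed replicate 1 was the lowest of the seed libraries, the opposite of ANI_1_382114.

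ANI_1_268114 had 2.85, 0.790 and 0.684 CPM in fermentation, against 191, 209.6 and 216 CPM in seed. Its residual level was highest in fermentation replicate 1, with 48 counts there against 14 and 12 counts in fermentation replicates 2 and 3, and its log2 fold change of -7.04 was -8.08 without replicate 1. ANI_1_1824104 had 4.16, 2.88 and 2.34 CPM in fermentation, against 174, 179 and 192 CPM in seed. ANI_1_1822064 had 1.25, 1.13 and 1.71 CPM in fermentation, against 178, 169 and 174 CPM in seed. Both were even across the seed libraries, with SDs of 9.15 and 4.73 CPM around means of 182 and 174 CPM (n = 3).

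The highest ratio of seed to fermentation was that of ANI_1_1590104, whose fermentation libraries held 5, 11 and 5 counts against 4836, 6944 and 6297 in seed, 789.5-fold lower by pooled counts (95% interval 516 to 1276). ANI_1_2106014 had 1, 0 and 1 counts in fermentation, against 307, 485 and 400 in seed. With 2 fermentation counts in all, its ratio of 547 has a counting interval of 151 to 4519. It is the member nearest to complete loss of signal, and also one of the 2 nearest to the seed limit.

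ANI_1_1352084 had 0, 4 and 1 counts in fermentation, against 753, 746 and 545 in seed, 375-fold lower (95% interval 160 to 1156), and its log2 fold change of -8.36 was -9.85 without fermentation replicate 2. ANI_1_290044 had 10, 6 and 4 counts in fermentation, against 2334, 1933 and 1696 in seed, 273-fold lower (95% interval 177 to 448). ANI_1_142164 had 3, 4 and 1 counts in fermentation, against 701, 865 and 716 in seed, 262-fold lower (95% interval 133 to 607). The interval of ANI_1_1590104 overlaps those of ANI_1_2106014, ANI_1_1352084 and ANI_1_142164, but not that of ANI_1_290044. The intervals of the other members named here overlap one another. Overlap of intervals is not a test of a difference, and neither the highest place nor the order below it was tested. Intervals cover counting error only, since the libraries of a state were pooled, and they leave out the spread between replicates. Reads without molecular identifiers are also not independent molecules, so even the counting error may be larger.

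At the other end, 12 members were under 10-fold lower. ANI_1_574044 had 4.93, 5.08 and 4.45 CPM in fermentation, against 21.5, 20.9 and 22.6 CPM in seed, a 4.49-fold difference (95% interval 3.91 to 5.16). Its libraries within each state were nearly equal, and it is a reduced rather than a silent ID. ANI_1_346084 had 6.24, 3.95 and 3.76 CPM in fermentation, against 17.6, 24.6 and 22.4 CPM in seed, a 4.67-fold difference (95% interval 4.07 to 5.39). ANI_1_690104 also kept a mean of 4.71 ± 1.60 CPM in fermentation, but stood at 84.4 ± 8.26 CPM in seed (SD, n = 3 each), so its fermentation level was 5.59% of its seed level.

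Every member kept some counts in fermentation. None of the 82 members (0) was without counts in all 3 fermentation libraries, and 4 had 0 counts in at least 1 of them. Counts of at most 3, which is 0.169 to 0.178 CPM in a fermentation library, were seen for 4, 2 and 7 members in fermentation replicates 1, 2 and 3, and in no seed library (0). At least 10 counts were reached by 69, 74 and 67 members in fermentation replicates 1, 2 and 3, and by all 82 in every seed library. Fermentation means were under 1 CPM for 20 members, 14 of which stayed under 1 CPM in every fermentation library. In the other direction, 13 members exceeded 5 CPM in at least 1 fermentation library, 8 of them in replicate 2. Overlap with other genes, near-identical copies and the strand setting of the counting could not be looked up for any member.

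The residual signal varied between fermentation libraries by more than counting error in most members. The variance of CPM over the fermentation libraries was 3.17 times the counting variance in the median member, and over 10 times in 15 members. On the log2(CPM + 0.5) scale the SD over fermentation libraries was 0.341 in the median member, against 0.169 over seed libraries. The other 1749 tested ANI_1_ IDs with at most 5 CPM in fermentation had a median SD of 0.318 over fermentation libraries. The members' spread in fermentation was therefore close to that of other IDs at such low levels. In seed, the 5266 other IDs with at least 20 CPM had a median SD of 0.108, below the members' 0.169. Those IDs had higher seed levels, with library medians of 68.5 to 72.9 CPM against 40.2 to 44.6 CPM for members. The seed spread was therefore not compared at a like level.

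The 3 members with the widest range among fermentation libraries were all highest in fermentation replicate 2. ANI_1_1914064 had 0, 225 and 0 counts in fermentation replicates 1, 2 and 3, or 12.7 CPM in replicate 2, against 42.2, 67.7 and 65.8 CPM in seed. It was therefore undetected in the other 2 fermentation libraries, where a floor of 3 counts allows up to 0.178 and 0.171 CPM, and expressed in replicate 2 at a level below that of every seed library. ANI_1_1834064 had 8, 111 and 25 counts in fermentation, or 0.475, 6.26 and 1.43 CPM, against 54.05, 87.4 and 71.4 CPM in seed. ANI_1_1918064 had 4, 75 and 17 counts in fermentation, or 0.238, 4.23 and 0.969 CPM, against 25.3, 29.6 and 28.4 CPM in seed. DESeq2 alone among the fits did not call ANI_1_1914064 lower (adjusted p = 0.213), where edgeR's adjusted p was 0.0149. Without fermentation replicate 2 the log2 fold change was -6.08 for ANI_1_1834064, against -4.63 with it, and -5.37 for ANI_1_1918064, against -3.85 with it. ANI_1_1914064 then has no fermentation count, so neither the fold change nor the p of that fit is read. In each of these 3 members the fermentation SD was larger than the fermentation mean, so the mean describes no single culture.

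**Figure D3:**
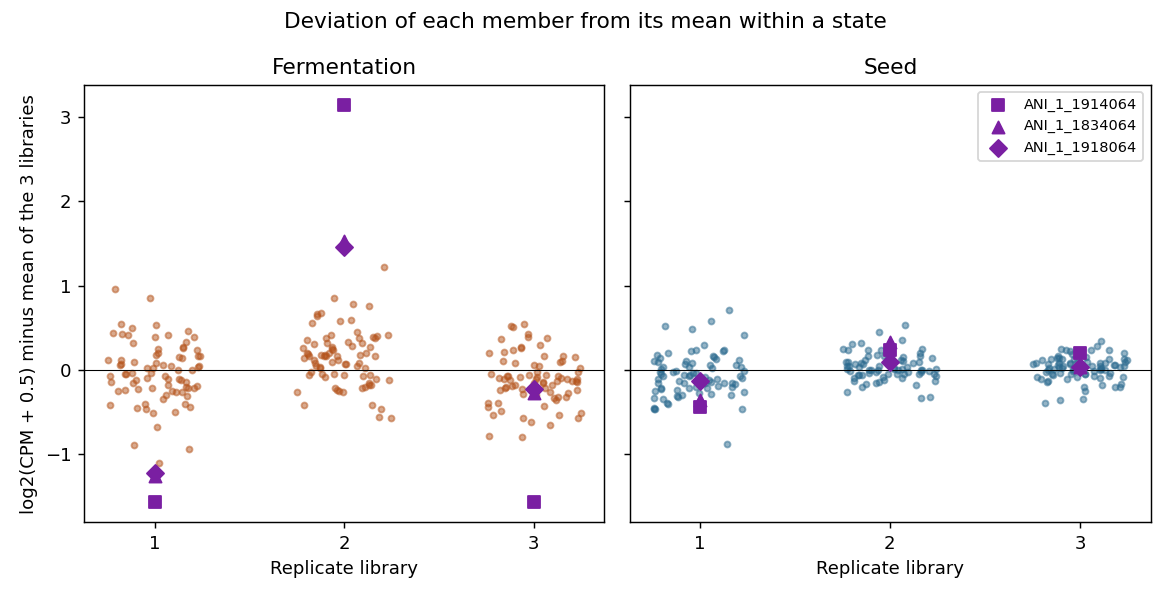
Deviation of log2(CPM + 0.5) from the mean of the 3 libraries of a state, for the 82 members in fermentation (left) and seed (right); purple symbols are the 3 members with the widest fermentation range. In fermentation those 3 stand above all other members in replicate 2, at 225, 111 and 75 counts, and in seed they lie among the rest.

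Fermentation replicate 2 gave the highest of the fermentation levels for 42 of 82 members (51.2%), replicate 1 for 27 and replicate 3 for 13. Among the 5266 other IDs with at least 20 CPM in seed, replicate 2 was also highest for 51.2%. With TMM-scaled library sizes, an alternative added after the data were seen, replicate 2 was highest for 34 members and replicate 1 for 33, and replicate 2 for 29.1% of the other IDs. Summed over all members, fermentation replicates 1, 2 and 3 had 167, 217 and 165 CPM, and without the 3 members above 166, 194 and 163 CPM. In seed, replicate 1 was the lowest library for 46 of 82 members (56.1%), against 32.1% of the 5266 other IDs. The members' log2 level in seed replicate 1 lay 0.12 below the mean of seed replicates 2 and 3 at the median, against 0.03 above it for the other IDs.

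Only 2 members had seed libraries at least 2-fold apart, and they differed in opposite directions. Both were picked after their values were seen. ANI_1_2330104 had 0.297, 0.677 and 0.741 CPM in fermentation, against 14.1, 38.3 and 33.6 CPM in seed, and is low in seed replicate 1. ANI_1_2322104 had 3.68, 3.50 and 2.96 CPM in fermentation, against 92.3, 45.1 and 42.9 CPM in seed, and is high in seed replicate 1. These IDs have nearby numbers, so closeness in number did not go with a shared order of the seed libraries here.

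The last 3 digits of an ID were taken as its ending and the digits before them as its number, which left out 7 short ANI_1_ IDs. The 82 members are spread over 15 of 18 endings. Ending 104 holds 18 of them, 2.44% of its 739 IDs, where 0.782% of all placed IDs are members. Counted among IDs with at least 20 CPM in seed, that is 6.19% for ending 104 against 1.53% overall. Ending 044 holds 5 members among 184 IDs (2.72%), and ending 184 only 1 among 787 (0.127%). What the endings stand for is not stated in the table.

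With the 10482 placed IDs ordered by number within their ending, 21 members stood in 8 runs of successive IDs, 5 runs of 2, 2 runs of 3 and 1 run of 5. Of the 164 places directly before or after a member, 26 (15.9%) were taken by another member. Within 10 places of another member lay 43 of the 82, a count with no share for IDs in general beside it. Of the 18 members of ending 104, where 2.44% of IDs are members, 8 were in runs. Nothing is read from either count. Whether neighbouring numbers are neighbouring genes is not stated either, and reads shared between adjacent genes were not tested.

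The run of 5 goes from ANI_1_1588104 to ANI_1_1596104 in steps of 2, with ANI_1_1590104 in second place. Its summed level was 6.95, 5.53 and 5.93 CPM in fermentation, against 571, 792 and 787 CPM in seed. All 5 members were lowest in seed replicate 1, and so was the sum. The highest seed library was not the same for all of them. ANI_1_1588104 had 1.13, 1.07 and 0.513 CPM in fermentation, against 122, 209.6 and 183 CPM in seed. ANI_1_1592104 had 2.44, 1.81 and 1.03 CPM in fermentation, against 55.3, 65.3 and 65.1 CPM in seed.

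ANI_1_1594104 had 2.44, 1.41 and 3.59 CPM in fermentation, against 88.5, 111 and 114 CPM in seed. ANI_1_1596104 had 0.654, 0.621 and 0.513 CPM in fermentation, against 49.7, 63.6 and 67.3 CPM in seed. The log2 fold changes within the run lay between -9.51 and -5.03, so its members shared the direction but not the size. Directly before the run, ANI_1_1586104 was also called lower, at 2.57 ± 0.817 CPM in fermentation and 11.5 ± 1.15 CPM in seed (SD, n = 3 each), and its log2 fold change was -2.07 with an SE of 0.23 (adjusted p = 9.93e-05 in the edgeR fit). Directly after it, ANI_1_1598104 had 2 counts over all 6 libraries.

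**Figure D4:**
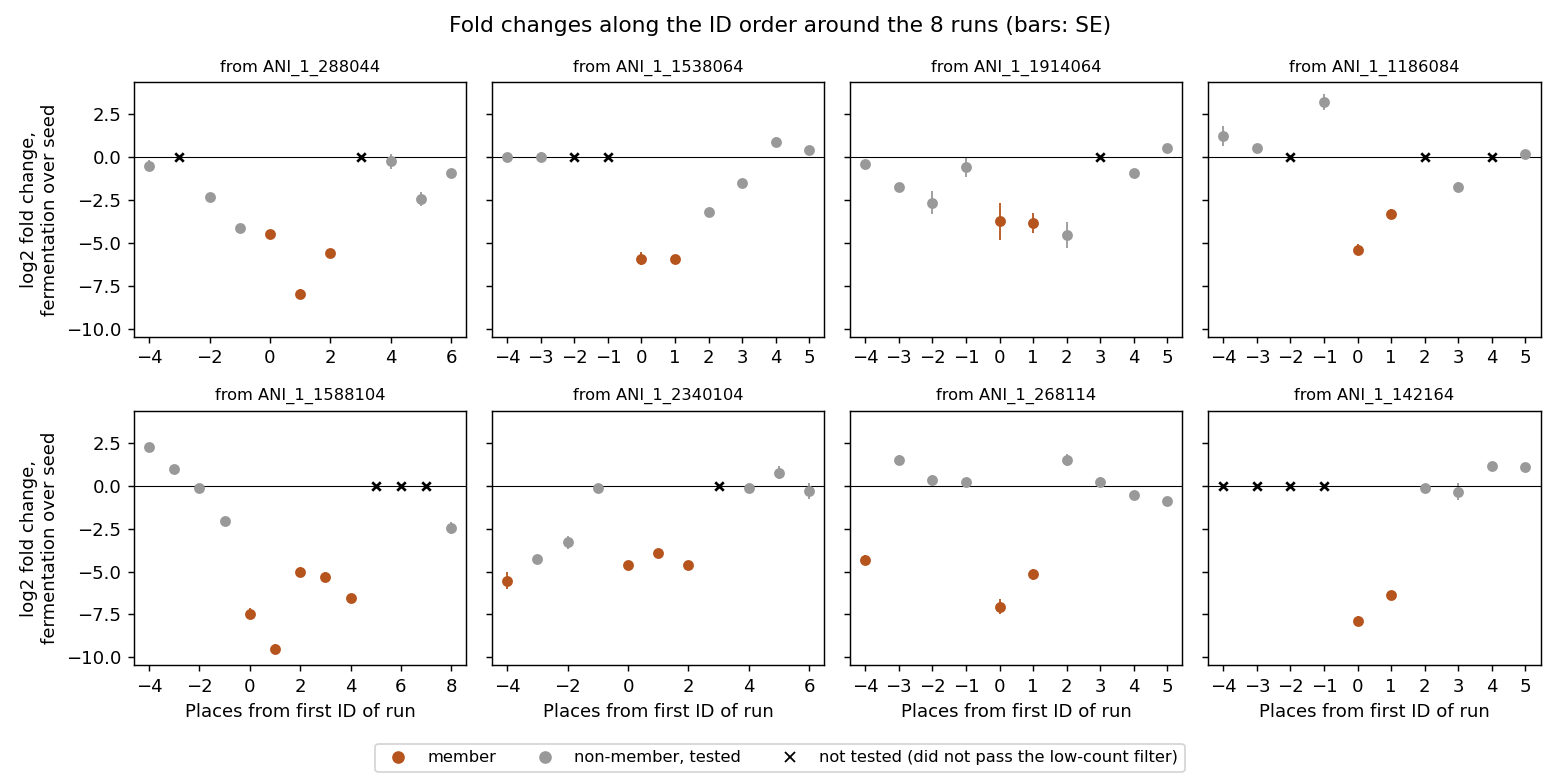
Log2 fold change, fermentation over seed, with SE, for the IDs in and around the 8 runs, by place from the first ID of the run; orange points are members, grey points other tested IDs, and crosses at 0 are IDs that did not pass the low-count filter and have no fold change. The run from ANI_1_1588104 reaches -9.51, and several runs have further negative values directly outside them.

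The runs of 3 lie in endings 044 and 104. The run from ANI_1_288044 to ANI_1_292044 summed to 5.17, 5.14 and 5.42 CPM in fermentation, against 317, 270.3 and 276 CPM in seed. Only the fermentation sums were almost equal. ANI_1_288044 was highest in fermentation replicate 2, ANI_1_290044 in replicate 1 and ANI_1_292044 in replicate 3. In seed, all 3 members were highest in replicate 1. The run from ANI_1_2340104 to ANI_1_2344104 summed to 6.95, 11.3 and 6.50 CPM in fermentation, against 181, 193 and 186 CPM in seed. All 3 of its members were highest in fermentation replicate 2.

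The runs of 2 begin at ANI_1_1538064, ANI_1_1914064, ANI_1_1186084, ANI_1_268114 and ANI_1_142164. The pair of ANI_1_1914064 and ANI_1_1918064 is the one that stood out in fermentation replicate 2. It summed to 0.238, 16.9 and 0.969 CPM in fermentation, against 67.5, 97.3 and 94.2 CPM in seed. The next ID, ANI_1_1920064, was also highest in fermentation replicate 2, at a lower level, with 0, 1.02 and 0 CPM in fermentation, against 7.66, 10.7 and 7.62 CPM in seed. In 5 of the 8 runs all members had the same highest fermentation library, in 3 the same highest seed library and in 4 the same lowest seed library. Of all 82 members, 51.2% were highest in fermentation replicate 2, 39.0% highest in seed replicate 2 and 56.1% lowest in seed replicate 1. Since 5 of the 8 runs have only 2 members, nothing is read from these counts about the runs.

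IDs next to members that did not qualify themselves were lower in fermentation in a larger share than IDs in general. Of the 136 non-members directly before or after a member, 105 could be tested, and 39 of these (37.1%) were called lower by at least 2-fold, where 14.6% of all IDs tested were. Calls of at least 2-fold in the other direction were 19 (18.1%), where 17.0% of all IDs tested were called higher. These IDs were not chosen by a fall, and members, which had to be lower, are left out of them. The count is a description, and no test of it was run.

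The share called lower by at least 2-fold was 23.8% at 2 places from the nearest member (25 of 105), 18.2% at 3 places (18 of 99), 12.9% at 4 places (12 of 93) and 17.1% at 5 places (14 of 82). The median log2 fold change of the directly adjacent non-members was -0.59, and -0.20, -0.11, -0.04 and -0.03 at 2, 3, 4 and 5 places. Both levels of seed expression contributed. Among adjacent IDs with at least 20 CPM in seed, 16 of 50 (32.0%) were called lower by at least 2-fold, against 12.3% of all such non-members. Among those under 20 CPM in seed it was 23 of 55 (41.8%), against 16.1%.

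**Figure D5:**
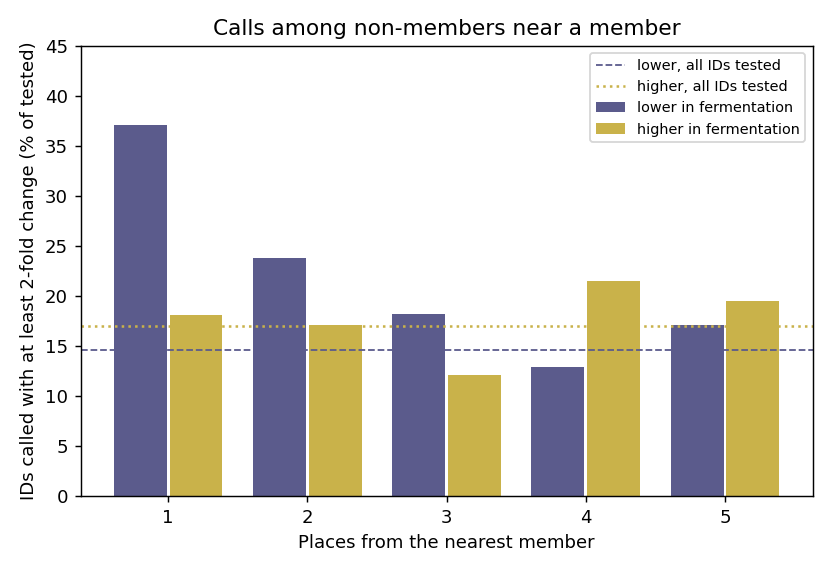
Percentage of tested non-members called lower or higher in fermentation by at least 2-fold (edgeR adjusted p under 0.05), by places from the nearest member; horizontal lines give the shares among all IDs tested, 14.6% lower and 17.0% higher. The share called lower is 37.1% at 1 place and 12.9% at 4 places, while the share called higher shows no such order.

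Some IDs near the runs were far lower in fermentation without qualifying. Those named here were picked after their values were seen. ANI_1_286044, directly before a run of 3, had 4.46, 7.22 and 4.22 CPM in fermentation, against 106, 98.3 and 88.0 CPM in seed, and its mean of 5.30 CPM is just over the limit. The ID before it, ANI_1_282044, had 43.7, 44.5 and 35.9 CPM in fermentation, against 243, 217 and 212 CPM in seed, so that 5 successive IDs of ending 044 were lower in fermentation, with log2 fold changes from -7.97 to -2.33. ANI_1_2332104 lies directly after the member ANI_1_2330104 and 3 places before the run from ANI_1_2340104. It had 3.21, 7.28 and 7.01 CPM in fermentation, against 117, 119.7 and 119 CPM in seed. ANI_1_2338104, directly before that run, was not called lower (log2 fold change -0.11, edgeR adjusted p = 0.513). ANI_1_1542064, directly after a run of 2, had 7.72, 11.9 and 10.8 CPM in fermentation, against 100.3, 105 and 88.3 CPM in seed. Neighbours did not always follow. ANI_1_272114, directly after ANI_1_270114, had 159, 62.6 and 83.3 CPM in fermentation, against 38.8, 38.1 and 41.1 CPM in seed, and was called higher (log2 fold change 1.51 ± 0.35 SE; edgeR adjusted p = 0.00487).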

How the data were processed

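The authors deposited 1 column of raw read counts per library, whole numbers with no normalization. Per the submitters' processing notes, HISAT2, Bowtie2, HTSeq, Cufflinks, StringTie, DESeq, Trimmomatic and SAMtools were used. Their roles, the genome build and the strand setting are not stated there or in the labels. Per the labels' protocols, total RNA went into a stranded mRNA kit. CPM was computed from column sums. The main fit was edgeR 4.0.16 (R 4.3.3) with TMM, filterByExpr (minimum count 10, minimum total 15) and group as the only term; it was tested on simulated data. Standard errors were derived from each fold change and its F statistic. Ratios are pooled seed over pooled fermentation CPM with Clopper-Pearson 95% intervals. DESeq2 1.42.0 and limma-voom (limma 3.58.1) were alternatives. Named members were the 5 with the highest seed level, the 5 largest ratios, the 3 highest fermentation levels, the 3 widest fermentation ranges and the longest run; other IDs are the nearest on either side of the limits, a run's ends or neighbours, or said to be picked later. Members and lists were chosen with earlier results of these data known. Planned gene groups were not described, since no ID (0 of 10505) matched the 14404 RefSeq genes. Correlations of same-numbered libraries' deviations were 0.0507, 0.0449 and 0.0668, so they were not treated as pairs.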

Additional observations from a re-analysis of the deposited data

How the results depend on the processing

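The number of members depended on the limits. It was 191 with at least 10 CPM in seed, 46 with at least 40 CPM, 187 with at most 10 CPM in fermentation and 50 with at most 2.5 CPM. TMM and DESeq2 size factors each gave 80, all among the 82. With 1 library left out it was 80 to 88, 78 to 82 of them among the 82. Members in runs were 45 and 37 with the limits of 10 CPM in seed and in fermentation, 17 to 25 under other definitions of a run and 19 to 22 with 1 library left out. All 82 members were called lower in every edgeR and limma-voom fit, also with a replicate block (82). The rule used the libraries of these fits, so nothing is read from the number called. DESeq2 called 81, and the exception was ANI_1_1914064 (DESeq2 log2 fold change -3.79, adjusted p = 0.213). Its adjusted p was 0.00247 to 0.0443 in the edgeR and limma-voom fits that kept fermentation replicate 2, limma-voom with a log2 fold change of -7.77. The edgeR fit without fermentation replicate 2 is left out of that range, since this ID then has no fermentation count. The median log2 fold change was -4.95 to -4.46 with 1 library left out, lowest without fermentation replicate 2. Adjacent non-members called lower by at least 2-fold were 34 to 43 under other scalings or with 1 library left out, 64 within 2 places and 82 within 3, which cover more IDs. Without the 5 members of highest seed level the seed share was 0.401%, by construction. The fermentation SD was 0.416 with a pseudocount of 0.1 CPM and 0.283 with 1 CPM. The count of members highest in fermentation replicate 2 under TMM was added after the data were seen. Depth limits members with few fermentation counts.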

Other observations

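ANI_1_130164, directly before the run that begins at ANI_1_142164, was picked after its values were seen. It had 3, 228 and 9 counts in fermentation replicates 1, 2 and 3, against 0, 8 and 3 counts in the seed libraries. It did not pass the low-count filter, since only 1 library had more than 9 counts, and was not tested. Like ANI_1_1914064 it had nearly all of its fermentation counts in replicate 2, but unlike the members it had almost none in seed.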
